A study of Homo sapiens with 12 samples.

Results

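The genes described here are 40 listed protein-coding genes that are very long, several of them the textbook genes of common fragile sites. They were chosen by name, with earlier results of these data known, and found in the count files through their Ensembl identifiers. They are 40 of the 63677 genes counted. Their spans ran from 317 kb for EXT1 to 2242 kb for DMD in the GENCODE annotation lifted to GRCh37. Of the 21325 genes with enough counts for a test, 39 were of this list, LRP1B being the one left out. RNA was sequenced from HCC38, MDA-MB-468 and SUM149PT, 3 established lines of basal-like (BL) breast cancer, after knock-down of the nuclear long non-coding RNA that the labels abbreviate to RP19. In each line, 2 libraries came from cells given the antisense locked nucleic acid oligonucleotides LNA1 and LNA2 (RP19 KD) and 2 from cells given a control oligonucleotide (LNA NS), 50 nM in both cases, with fresh medium after 6 h and RNA collected at 24 h. The poly-A fraction was sequenced. Every group is therefore 1 cell line under 1 transfection, and the labels do not tell whether its 2 libraries were separate cultures, which leaves each p-value as a measure of the spread between these libraries only.

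A very long gene is almost all intron, and RNA polymerase II needs hours to cross it before the first complete transcript can be spliced and exported. Such genes are known for their dependence on processive elongation and on the U1 small nuclear ribonucleoprotein, which keeps nascent transcripts from being cut and polyadenylated early inside an intron. Common fragile sites are chromosome regions that break under replication stress, and many lie inside very long, late-replicating genes such as FHIT and WWOX.

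Promoters of 3 genes are shown, those of IMMP2L for the lowest single value of the list, of WWOX as a textbook fragile site gene that fell in every line and of FOXP1 for a mean change near 0. IMMP2L and WWOX each have 1 start in the table used and FOXP1 has 6. The number of starts alone did not fully sort the genes by response. LPP, with 7 promoters in the table, fell in every line. MAGI2, with 1, did not pass the test in either line where it was measured. RORA did not pass in any line and also has 1 in the table. That start lies 139 kb from the end of a span of 741 kb, so starts of RORA may be missing. The sequences are from RefSeq, GRCh38.p14, and cover 250 bases before and 50 bases after the start, with each CG dinucleotide in capitals. IMMP2L lies at chr7:111562443-111562742 on the minus strand, WWOX at chr16:78099404-78099703 on the plus strand, the first start of FOXP1 at chr3:71583679-71583978 and its last at chr3:71064875-71065174, both on the minus strand.
IMMP2L: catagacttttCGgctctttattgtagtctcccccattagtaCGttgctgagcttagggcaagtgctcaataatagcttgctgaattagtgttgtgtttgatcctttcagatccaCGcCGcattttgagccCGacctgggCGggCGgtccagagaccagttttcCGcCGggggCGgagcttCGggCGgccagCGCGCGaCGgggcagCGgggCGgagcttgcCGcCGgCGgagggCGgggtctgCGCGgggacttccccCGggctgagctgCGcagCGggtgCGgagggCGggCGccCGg
WWOX: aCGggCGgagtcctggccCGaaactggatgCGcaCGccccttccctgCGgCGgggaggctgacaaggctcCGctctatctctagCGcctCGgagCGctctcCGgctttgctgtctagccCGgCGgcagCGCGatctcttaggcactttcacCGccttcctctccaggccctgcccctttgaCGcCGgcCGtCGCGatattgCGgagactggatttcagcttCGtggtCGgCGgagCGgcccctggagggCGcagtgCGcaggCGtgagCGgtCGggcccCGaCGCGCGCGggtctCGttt
FOXP1, first start: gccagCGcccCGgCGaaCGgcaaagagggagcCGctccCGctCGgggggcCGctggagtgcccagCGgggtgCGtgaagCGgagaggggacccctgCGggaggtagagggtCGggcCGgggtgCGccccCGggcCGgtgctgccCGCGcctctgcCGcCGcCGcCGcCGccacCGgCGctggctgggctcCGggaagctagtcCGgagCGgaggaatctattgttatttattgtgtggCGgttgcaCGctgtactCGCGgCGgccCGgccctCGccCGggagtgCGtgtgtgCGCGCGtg
FOXP1, last start: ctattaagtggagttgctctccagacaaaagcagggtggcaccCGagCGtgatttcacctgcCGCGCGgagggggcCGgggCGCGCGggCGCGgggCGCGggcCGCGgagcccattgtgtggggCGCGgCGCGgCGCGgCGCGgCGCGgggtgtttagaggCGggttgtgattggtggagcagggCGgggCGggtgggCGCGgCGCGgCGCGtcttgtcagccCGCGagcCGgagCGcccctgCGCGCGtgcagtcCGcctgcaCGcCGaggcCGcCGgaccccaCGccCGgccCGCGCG
All 4 are rich in CG, with 31 in IMMP2L, 38 in WWOX, 41 at the first and 51 at the last start of FOXP1. Promoters were at hand for 32 of the 40 genes. Of the 75 promoters of these genes, 42.7% held at least 15 CG, beside 48.9% of the 35116 promoters in the table. At the first start of each gene 24 of 32 did, a choice of start that was not made for the other genes. The letters TATAAA, on either strand, were found in 12.0% of the 75 promoters (6.25% at the first starts) and in 11.5% of all promoters.

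The libraries held 32187835 to 56191152 counts on genes. The targeted lncRNA, listed as LINC01956, was lower in both RP19 KD libraries than in both LNA NS libraries of every line. On the log2 scale this was -3.09 in HCC38, -4.41 in SUM149PT and -4.75 in MDA-MB-468, the line with under 1 CPM of it (CPM are counts scaled to the size of the library) in the LNA NS libraries. At least 6 of 8 basal markers reached 1 CPM in every group, and their summed level was 8033 to 8837 CPM in the 2 MDA-MB-468 controls and 4954 to 5361 CPM after knock-down, with EGFR alone at 2672 to 6074 CPM in that line. The basal sum went from 4869 to 5279 CPM to 3881 to 4008 CPM in SUM149PT and overlapped in HCC38 (1440 to 1461 and 1421 to 1470 CPM). By single genes, 4, 5 and 2 of the 8 fell and 3, 2 and 3 rose (MDA-MB-468, SUM149PT, HCC38). The luminal markers summed to 667 to 2506 CPM, with 5 or 6 of 7 at 1 CPM. None of 5 immune markers reached 1 CPM, and 2 or 3 of 6 fibroblast or endothelial markers did, with sums of 18.3 to 137 CPM. The part of these markers in the results was not tested.

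To learn how uniform the response of very long genes was, RP19 KD was compared with LNA NS in each line. In MDA-MB-468, 32 of the 36 genes with a mean of at least 10 counts in that line fell, none rose and 4 did not pass the test (edgeR's quasi-likelihood test, Benjamini-Hochberg adjusted p under 0.1), where 30.3% of all genes fell. In SUM149PT 29 of 38 fell, none rose and 9 did not pass, beside 21.8% of all genes that fell. In HCC38 29 of 38 fell, none rose and 9 did not pass, beside 20.7% of all genes. The fall passed 2-fold for 31, 23 and 22 of them in that order, against 12.2%, 4.84% and 4.72% of all genes. Among these genes a rise was called neither by edgeR nor by DESeq2 in any line, and 0 were higher at an unadjusted p under 0.05, whereas 28.4%, 22.7% and 16.6% of all genes rose. Only genes that reached the mean of 10 counts in a line are counted here, and too few counts were found for 4 genes in MDA-MB-468 and for 2 genes in each of the other lines.

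The median log2 fold change of the measured genes was -2.12 in MDA-MB-468, which is 22.9% of the control level. In SUM149PT it was -1.32 and in HCC38 -1.16. Over all genes tested the median was 0.01, 0.01 and -0.01. When SUM149PT LNA NS replicate 1 was left out, the median of that line became -1.11. In bulk RNA, fewer cells that express a gene and less of its RNA per cell cannot be told apart.

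**Figure D1:**
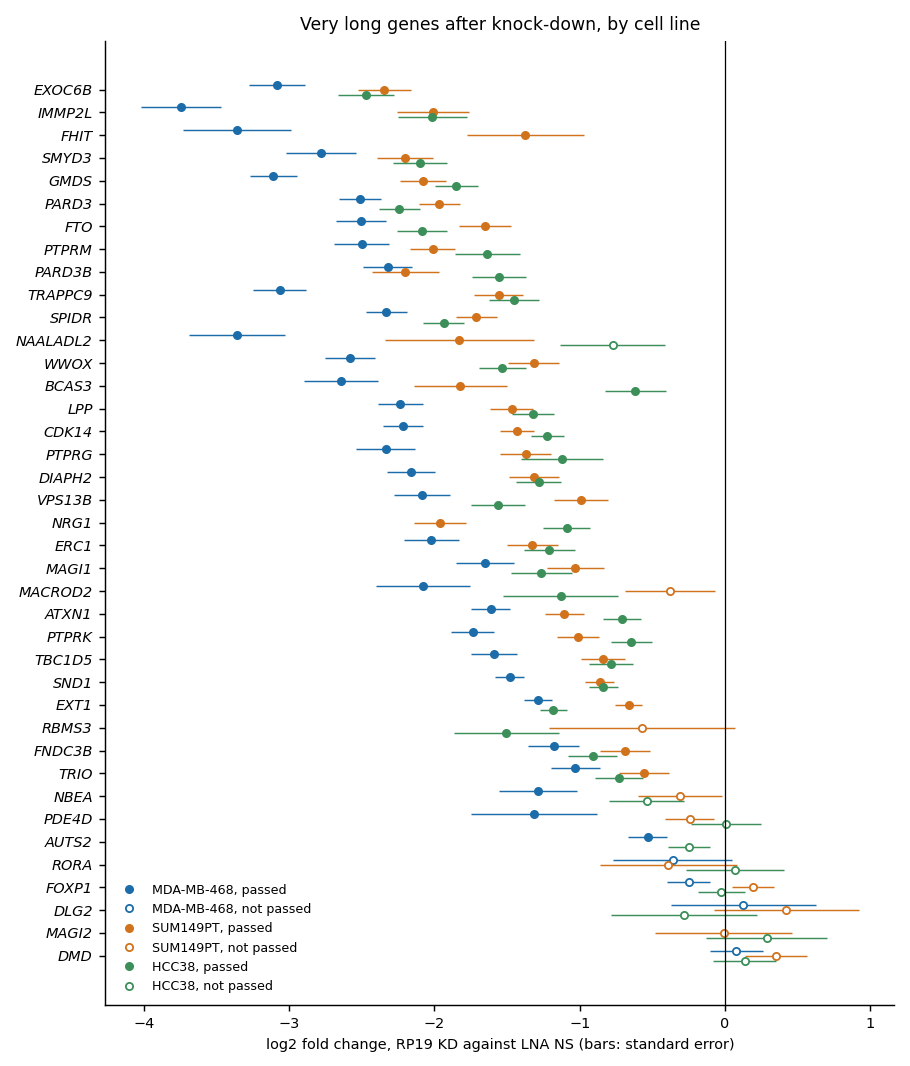
Log2 fold change of RP19 KD against LNA NS (x axis, bars are standard errors) for the 39 tested genes, ordered by their mean over the lines in which they were measured, with filled points for adjusted p under 0.1. The MDA-MB-468 points lie farthest left for most genes, and DMD, MAGI2, DLG2, FOXP1 and RORA have open points only.

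The shift was seen in each knock-down library on its own. Relative to the mean of the LNA NS libraries of the line, the median of the genes lay at -2.07 and -2.15 on the log2 scale in the RP19 KD libraries of MDA-MB-468. In SUM149PT it lay at -1.11 and -1.19, and in HCC38 at -0.99 and -1.21. The 2 LNA NS libraries differed from their mean by 0.05, 0.06 and 0.09 in the same order of lines, and no RP19 KD library lay within the range of the controls.

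**Figure D2:**
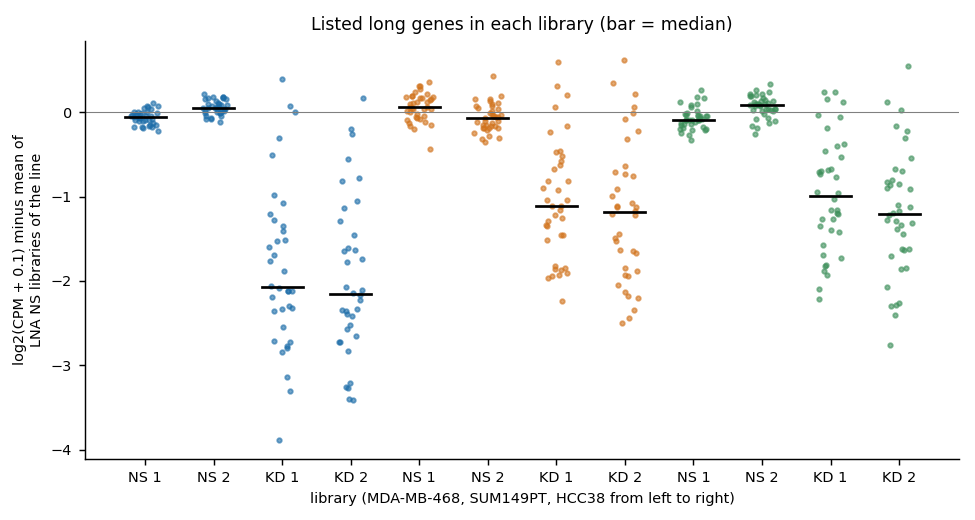
Each point is 1 very long gene in 1 library, as log2(CPM + 0.1) minus the mean of the LNA NS libraries of the same line (y axis), and the bar is the median of the 36 or 38 genes measured in that line. The medians of the RP19 KD libraries run from -2.15 to -0.99 and those of the LNA NS libraries from -0.09 to 0.09.

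Across the 34 genes measured in all 3 lines, 26 fell in every line, 2 in 2 lines, 2 in 1 line and 4 in none. The share of all genes that fell in every line was 12.3%. For 28 of the 34, both RP19 KD libraries lay under both controls in every line, as for 18.5% of all genes. On the mean of the 3 log2 fold changes, 30 fell and 4 did not pass, beside 34.6% of all genes that fell, and the fall passed 2-fold for 26, beside 5.68% of all genes. The mean log2 fold changes ran from -2.63 for EXOC6B to 0.19 for DMD with a median of -1.57. Their standard deviation of 0.75 was larger than the median standard error of 0.10, so the genes differed from each other by more than the error of a single value.

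FHIT, a diadenosine triphosphate hydrolase and tumor suppressor at chr3:59733003-61237133 on the minus strand of GRCh37, was at 3.48 and 3.75 CPM in the MDA-MB-468 LNA NS libraries and at 0.276 and 0.424 CPM after knock-down. It was at 0.991 and 0.782 CPM in the LNA NS libraries of SUM149PT and at 0.353 and 0.327 CPM after knock-down. The groups did not overlap in either line, and log2 fold changes were -3.36 ± 0.37 (SE, adjusted p = 2.5e-06) and -1.37 ± 0.40 (adjusted p = 0.016). In HCC38 the gene was near the floor, with 0.0819 to 0.197 CPM in the 4 libraries, overlapping groups and too few counts for a call. The call in SUM149PT was lost without LNA NS replicate 1 of that line (adjusted p = 0.11).

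WWOX, an oxidoreductase and tumor suppressor at chr16:78133297-79246564 on the plus strand, was at 20.7 and 20.4 CPM in the MDA-MB-468 LNA NS libraries and at 3.01 and 3.84 CPM after knock-down. In SUM149PT the levels were 8.84 and 8.21 CPM against 3.27 and 3.60 CPM. In HCC38 they were 14.5 and 16.4 CPM against 4.59 and 6.14 CPM. The groups were apart in all 3 lines. WWOX had log2 fold changes of -2.58 ± 0.17 (adjusted p = 1.2e-08), -1.32 ± 0.17 (adjusted p = 3.7e-05) and -1.53 ± 0.16 (adjusted p = 5.4e-06) in the same order.

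IMMP2L, a subunit of the mitochondrial inner membrane peptidase at chr7:110302700-111202573 on the minus strand, had the lowest single value of the list. It was at 8.61 and 7.71 CPM in the MDA-MB-468 LNA NS libraries and at 0.460 and 0.753 CPM after knock-down, 7.46% of the control. The SUM149PT levels were 5.97 and 5.67 CPM against 1.52 and 1.34 CPM. In HCC38 it was at 7.25 and 5.59 CPM against 1.90 and 1.21 CPM. No libraries overlapped between groups, and the log2 fold changes were -3.75 ± 0.27, -2.01 ± 0.25 and -2.01 ± 0.24 in the order of the lines (adjusted p = 3.3e-08, 1.9e-05 and 1.5e-05). MACROD2, which removes ADP-ribose from proteins, was lower by a log2 fold change of -2.08 ± 0.32 in MDA-MB-468 and -1.13 ± 0.39 in HCC38, both past the threshold, while -0.38 ± 0.31 in SUM149PT did not pass (adjusted p = 0.40). Its HCC38 call rested on few counts and was lost without LNA NS replicate 1 (adjusted p = 0.30) or RP19 KD replicate 2 (adjusted p = 0.22).

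EXOC6B, a subunit of the exocyst that tethers secretory vesicles, lies at chr2:72403113-73053170 on the minus strand. It was at 44.2 and 39.7 CPM in the MDA-MB-468 LNA NS libraries and at 6.03 and 3.86 CPM after knock-down. In SUM149PT it was at 43.0 and 41.9 CPM against 8.91 and 7.75 CPM, and in HCC38 at 20.9 and 23.6 CPM against 4.70 and 3.20 CPM. The libraries were apart throughout, at log2 fold changes of -3.08 ± 0.19, -2.34 ± 0.18 and -2.47 ± 0.19 (adjusted p = 6.6e-09, 2.6e-07 and 2.7e-07). Its mean over the lines, -2.63 with a 95% interval of -2.87 to -2.40, overlapped that of IMMP2L, -2.90 to -2.28, so that their order is not resolved.

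GMDS, the first enzyme of GDP-fucose synthesis, at chr6:1624041-2245839 on the minus strand, was at 83.7 and 78.3 CPM in the MDA-MB-468 LNA NS libraries and at 11.2 and 7.56 CPM after knock-down. In SUM149PT it was at 27.2 and 30.1 CPM against 7.36 and 6.12 CPM, and in HCC38 at 57.5 and 49.9 CPM against 15.02 and 14.8 CPM. All groups were apart, and the log2 fold changes were -3.11 ± 0.16, -2.08 ± 0.16 and -1.85 ± 0.15. The other genes of membrane traffic, uptake and glycan synthesis were TRAPPC9, VPS13B, ERC1, TBC1D5, EXT1, NBEA and LRP1B. TRAPPC9, a subunit of a tethering complex for transport vesicles, went from 17.2 and 18.9 CPM to 2.51 and 1.79 CPM in MDA-MB-468, from 14.5 and 14.9 CPM to 5.30 and 4.66 CPM in SUM149PT and from 8.87 and 9.42 CPM to 3.73 and 2.91 CPM in HCC38. Its libraries did not overlap in any line, at log2 fold changes of -3.07 ± 0.18, -1.56 ± 0.17 and -1.45 ± 0.17.

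VPS13B, a lipid transfer protein of the Golgi, fell in all lines with a mean log2 fold change of -1.54, as did ERC1, a scaffold of exocytosis sites, at -1.52. TBC1D5, a Rab GTPase-activating protein of endosomes, had a mean of -1.07 and EXT1, a heparan sulfate polymerase, one of -1.04, and both fell in all lines. NBEA, a BEACH domain protein of vesicle traffic, was called in MDA-MB-468 (-1.29 ± 0.27) and not in SUM149PT (-0.31 ± 0.29) or HCC38 (-0.54 ± 0.26), and the test of a difference between lines was not passed (adjusted p = 0.15). LRP1B, an endocytic receptor of the LDL receptor family, was near silent, with 29 counts over the 6 LNA NS libraries and 9 over the 6 RP19 KD libraries, and was not tested. By line its summed counts under LNA NS and RP19 KD were 12 and 2 for HCC38, 12 and 7 for SUM149PT and 5 and 0 for MDA-MB-468.

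PARD3, a scaffold of the cell polarity complex at chr10:34398488-35104253 on the minus strand, fell in all 3 lines. Its levels in the LNA NS and RP19 KD libraries were 75.6 and 77.1 against 15.2 and 11.5 CPM in MDA-MB-468. They were 92.3 and 87.5 against 25.4 and 20.5 CPM in SUM149PT, and 113 and 116 against 26.8 and 21.5 CPM in HCC38. The groups were apart in every line, with log2 fold changes of -2.51 ± 0.14, -1.97 ± 0.14 and -2.24 ± 0.14 (adjusted p = 3.1e-09, 9.9e-08 and 3.1e-08). The test of a difference between lines was not passed (adjusted p = 0.12).

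Of the other genes of junctions and polarity, PARD3B, a paralog of PARD3, fell in all lines with a mean log2 fold change of -2.03. The receptor tyrosine phosphatases PTPRM, PTPRG and PTPRK also fell in all lines, with means of -2.05, -1.61 and -1.13. MAGI1, a scaffold of tight junctions, fell in all lines with a mean of -1.31. Its paralog MAGI2, at chr7:77646372-79082983 on the minus strand, did not pass the test in either line where it was measured. MAGI2 was at 1.098 and 1.17 CPM in the LNA NS libraries of SUM149PT and at 0.948 and 1.34 CPM after knock-down, and in HCC38 at 1.77 and 2.03 against 1.85 and 2.83 CPM. The groups overlapped in both lines, with log2 fold changes of -0.01 (95% interval -1.01 to 0.99) and 0.29 (-0.60 to 1.18), and these intervals include a 2-fold rise in HCC38 and a 2-fold fall in SUM149PT. In MDA-MB-468 MAGI2 had 0 to 0.274 CPM. DLG2, a synaptic scaffold named here after its values were seen, was under 1 CPM in every library, and its mean log2 fold change of 0.09 had an interval of -0.52 to 0.71.

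**Figure D3:**
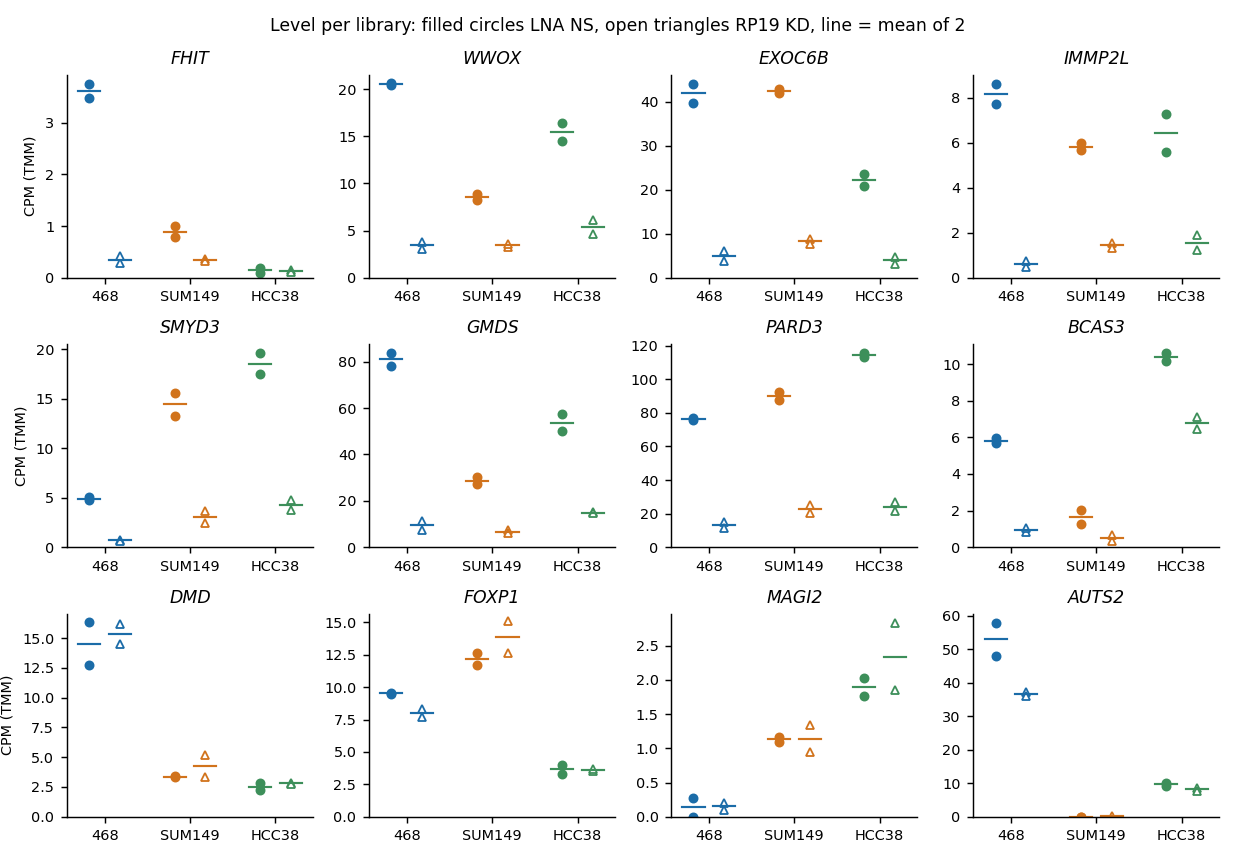
CPM with TMM scaling (y axis, starting at 0) of 12 very long genes in each of the 12 libraries by line, with filled circles for LNA NS, open triangles for RP19 KD and lines for the mean of 2. In the panels of EXOC6B, IMMP2L, SMYD3, GMDS, PARD3, WWOX and BCAS3 the groups are apart in all lines, whereas those of DMD overlap or touch in every line.

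SMYD3, a lysine methyltransferase at chr1:245912644-246670614 on the minus strand, was at 5.05 and 4.76 CPM in the MDA-MB-468 LNA NS libraries and at 0.759 and 0.659 CPM after knock-down. It was in SUM149PT at 13.3 and 15.6 CPM against 3.70 and 2.47 CPM, and in HCC38 at 19.6 and 17.4 CPM against 4.79 and 3.77 CPM. No library of one group reached the other, and the log2 fold changes were -2.78 ± 0.24, -2.20 ± 0.19 and -2.10 ± 0.19. The test of a difference between lines was not passed (adjusted p = 0.23). FTO, an RNA demethylase, fell in all lines with a mean of -2.08, as did SPIDR, a scaffold of homologous recombination, with -1.99. SND1, a nuclease and transcriptional coactivator, and ATXN1, a transcriptional corepressor, fell in all lines with means of -1.06 and -1.14.

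BCAS3, a cytoskeleton- and autophagy-linked protein at chr17:58754814-59470199 on the plus strand, was at 5.68 and 5.98 CPM in the MDA-MB-468 LNA NS libraries and at 0.805 and 1.06 CPM after knock-down. In SUM149PT it went from 2.01 and 1.27 CPM to 0.335 and 0.654 CPM, and in HCC38 from 10.2 and 10.6 CPM to 6.44 and 7.11 CPM. No groups overlapped, and its log2 fold changes were -2.64 ± 0.26, -1.82 ± 0.32 and -0.62 ± 0.21 (adjusted p = 0.038 in HCC38). The HCC38 call was lost when LNA NS replicate 1 (adjusted p = 0.11), LNA NS replicate 2 (0.14) or RP19 KD replicate 1 (0.17) of that line was left out.

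RBMS3, an RNA-binding protein, had 0 counts in MDA-MB-468 and fell in HCC38 (-1.50 ± 0.36, adjusted p = 0.0071). In SUM149PT its value of -0.57 ± 0.64 rested on levels under 0.5 CPM, and it became -2.06 (adjusted p = 0.053) without RP19 KD replicate 2. AUTS2, a Polycomb-associated activator at chr7:69063282-70258492 on the plus strand, was at 48.1 and 57.7 CPM in the MDA-MB-468 LNA NS libraries and at 37.2 and 35.99 CPM after knock-down. In HCC38 it was at 9.18 and 10.2 CPM against 8.45 and 7.84 CPM. The groups were apart in both lines, but only the MDA-MB-468 log2 fold change of -0.53 ± 0.13 passed (adjusted p = 0.0039), with -0.25 ± 0.14 in HCC38 (adjusted p = 0.23). In SUM149PT both LNA NS libraries were at 0 and the RP19 KD libraries at 0.0372 and 0.119 CPM, too few counts for a fold. The fit called AUTS2 higher there (adjusted p = 0.037), a call left out of the counts above for its lack of counts.

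FOXP1, a forkhead transcription factor at chr3:71003844-71633129 on the minus strand, was among the genes that did not pass in any line. It was at 9.55 and 9.49 CPM in the MDA-MB-468 LNA NS libraries and at 7.71 and 8.31 CPM after knock-down. In SUM149PT it was at 11.7 and 12.6 against 15.1 and 12.7 CPM, and in HCC38 at 3.32 and 3.97 against 3.50 and 3.69 CPM. The knock-down libraries were the lower ones in MDA-MB-468 and the higher ones in SUM149PT, and the groups overlapped in HCC38. Its mean log2 fold change of -0.03 had an interval of -0.21 to 0.16, which leaves out a 2-fold change in either direction. RORA, a nuclear receptor named after its values were seen, had a mean of -0.23 with an interval of -0.73 to 0.28 at levels of 0.279 to 1.88 CPM.

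DMD, which encodes dystrophin, is the longest gene of the list, at chrX:31115794-33357726 on the minus strand. It was at 12.7 and 16.3 CPM in the MDA-MB-468 LNA NS libraries and at 14.5 and 16.2 CPM after knock-down. Its SUM149PT libraries were at 3.40 and 3.36 against 5.15 and 3.36 CPM, and those of HCC38 at 2.27 and 2.80 against 2.84 and 2.75 CPM. The groups overlapped or touched in each line, and the log2 fold changes were 0.08 ± 0.18, 0.35 ± 0.21 and 0.14 ± 0.22 (adjusted p = 0.78, 0.24 and 0.70). The mean of 0.19 had an interval of -0.06 to 0.44. Without SUM149PT RP19 KD replicate 2, DMD passed as higher in that line (0.62, adjusted p = 0.053) and on the mean (0.27, adjusted p = 0.055), and it was then the one gene called as risen among those with enough counts.

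Of the other genes of the cytoskeleton, adhesion and signaling, LPP, a focal adhesion protein, fell in all lines with a mean log2 fold change of -1.67, as did DIAPH2, a formin that builds actin filaments, with -1.59. TRIO, a guanine nucleotide exchange factor, had a mean of -0.77 and FNDC3B, a membrane protein with fibronectin domains, one of -0.93, both called in each line. The SUM149PT calls were lost without LNA NS replicate 1 of that line for both (adjusted p = 0.18 for TRIO and 0.10 for FNDC3B), and for TRIO also without RP19 KD replicate 2 (0.14). NAALADL2, a relative of folate-releasing peptidases, went from a log2 fold change of -3.36 ± 0.33 in MDA-MB-468 to -0.77 ± 0.36 in HCC38, where it did not pass. Its SUM149PT value of -1.83 ± 0.51 passed (adjusted p = 0.013) at levels under 1 CPM. CDK14, a cyclin-dependent kinase, was at 11.3 and 12.4 CPM in the MDA-MB-468 LNA NS libraries and at 2.65 and 2.45 CPM after knock-down. It was at 32.8 and 30.2 against 12.5 and 10.9 CPM in SUM149PT and at 40.4 and 42.6 against 18.6 and 17.0 CPM in HCC38. CDK14 groups were apart in all lines, at log2 fold changes of -2.22 ± 0.14, -1.43 ± 0.12 and -1.22 ± 0.12.

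NRG1, a ligand of the ERBB3 and ERBB4 receptors, was measured in 2 lines. It went from 10.8 and 12.3 CPM to 2.99 and 2.91 CPM in SUM149PT and from 17.0 and 19.4 CPM to 9.31 and 7.78 CPM in HCC38. The groups did not overlap, and the log2 fold changes were -1.96 ± 0.18 (adjusted p = 1.9e-06) and -1.09 ± 0.16 (adjusted p = 0.00018). In MDA-MB-468 it was at 0 in both LNA NS libraries. PDE4D, a cyclic AMP phosphodiesterase named after its values were seen, was at 74.1 and 59.0 CPM in the LNA NS libraries of SUM149PT and at 59.2 and 53.2 CPM after knock-down. The groups overlapped by a narrow margin, and its log2 fold change was -0.24 ± 0.17 there and 0.01 ± 0.24 in HCC38, both short of the threshold. In MDA-MB-468, where PDE4D was under 1 CPM, the value of -1.32 ± 0.44 passed (adjusted p = 0.022) but did not without RP19 KD replicate 1 (adjusted p = 0.16) or LNA NS replicate 2 (adjusted p = 0.18). The test of a difference between the lines was not passed for PDE4D (adjusted p = 0.15).

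For the difference between the lines, the test was passed by 23 of the 34 genes (F test on the 3 contrasts, adjusted p under 0.1), beside 41.7% of all genes, and MDA-MB-468 had the lowest value for all 23. The F test does not tell which line differs, and the lines were not tested in pairs. Among the 34, MDA-MB-468 was lowest for 32, and SUM149PT was lower than HCC38 for 18. The smallest adjusted p-values were those of TRAPPC9 (0.00052), GMDS (0.0015), BCAS3 (0.0016), CDK14 (0.0027) and WWOX (0.0029). The count of 23 became 14 without MDA-MB-468 RP19 KD replicate 2. The order of the genes was shared in part between lines, with Spearman's rho of 0.90 between MDA-MB-468 and SUM149PT, 0.74 between MDA-MB-468 and HCC38 and 0.79 between SUM149PT and HCC38, over 34 genes that share the libraries of each line.

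The listed genes were then set beside the other protein-coding genes by span. The listed genes had been chosen with earlier results of these data known, and the part of that choice in any gap was not tested. The other genes of at least 300 kb had a median log2 fold change of -0.69 over 492 genes in HCC38, -0.57 over 453 in SUM149PT and -1.22 over 409 in MDA-MB-468, above the medians of the listed genes. On the mean of the lines 80.5% of 343 such genes fell and 7.29% rose. With a limit of 200 kb or 500 kb the share that fell was 76.1% or 73.6%. For genes under 10 kb the median of the mean log2 fold change was 0.06, and it was 0.09 for 10 to 30 kb, 0.00 for 30 to 100 kb, -0.29 for 100 to 300 kb and -0.83 for 300 to 1000 kb. The bin of at least 1000 kb broke this order, with a median of -0.45 over 8 other genes. Of these 8, 5 fell and 2 rose. In HCC38 the median of that bin was -0.11, and 1 of its 12 genes fell and 2 rose. Listed genes were left out of all these bins. Those of at least 1000 kb measured in all lines had mean log2 fold changes from -2.03 for PARD3B to 0.19 for DMD. Long genes that rose were also found, RYR2 being the highest at a mean of 2.65, and EXOC4 the lowest at -2.96.

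**Figure D4:**
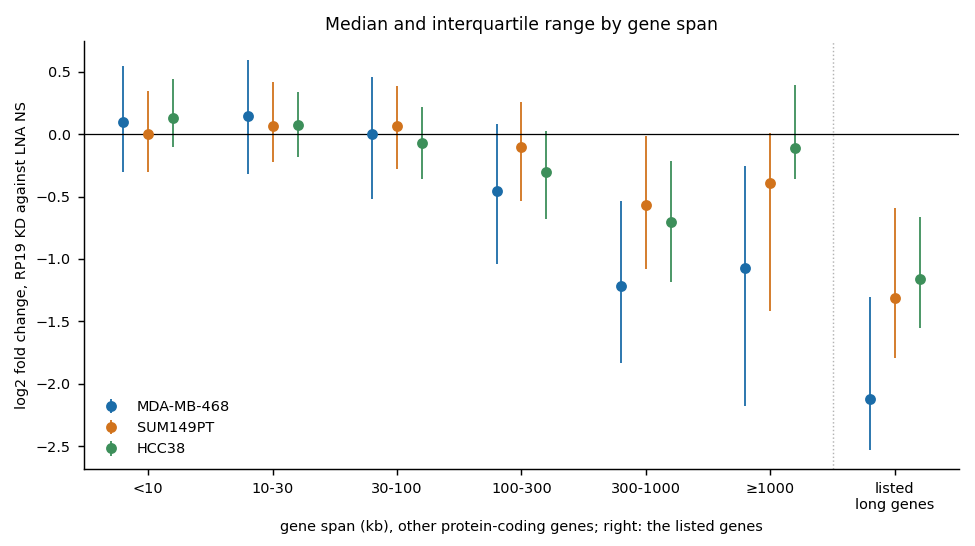
Median (point) and interquartile range (bar) of the log2 fold change (y axis) in each line for other protein-coding genes by span and, on the right, for the listed very long genes. The medians lie near 0 up to 100 kb and at -1.22, -0.57 and -0.71 for 300 to 1000 kb in MDA-MB-468, SUM149PT and HCC38, and the bin of at least 1000 kb holds 10, 18 and 12 genes.

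Within the list, span, taken between the outermost annotated ends of a gene, did not order the response. Over the 34 genes Spearman's rho between the mean log2 fold change and span was 0.02. It was 0.04 for the first intron and -0.09 for the longest intron of 1 transcript per gene, and -0.05 for the control level in CPM. These CPM were not divided by exonic length, and the level per kb of exon was not compared with the response in this way. For exonic length, the summed length of all annotated exons, rho was 0.59 (Pearson's r 0.68 with the logarithm). It was 0.47 for exonic length as a percentage of span and 0.33 for the number of exons. By line there were 36, 38 and 38 genes in MDA-MB-468, SUM149PT and HCC38. In that order rho was 0.58, 0.59 and 0.58 for exonic length and -0.06, 0.17 and 0.23 for span. For the control level it was 0.06, -0.13 and -0.33. The 17 genes with 3.97 to 11.7 kb of exon had a median of -1.99 and the 17 with 13.3 to 55.0 kb one of -1.14. Among the 343 other genes of at least 300 kb the rho with exonic length was 0.21. These values describe genes that share libraries and carry no p-value.

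A further length was taken after the data were seen, from the last RefSeq start of a gene to its end, which is the shortest unit its listed promoters allow. For the 28 genes with a value, rho with the mean log2 fold change was -0.57. In the single lines it was -0.45 over 30 genes in MDA-MB-468, -0.34 over 31 in SUM149PT and -0.24 over 31 in HCC38. For DMD this length was 389 kb of a span of 2242 kb, for FOXP1 110 kb, for DLG2 227 kb, for RORA 139 kb and for PDE4D 30.9 kb. It was also short for SMYD3, at 239 kb, which fell in every line. It was long for MAGI2, at 1437 kb, and AUTS2, at 1195 kb. MAGI2 had log2 fold changes of -0.01 in SUM149PT and 0.29 in HCC38, and neither passed. AUTS2 had -0.25 in HCC38, which did not pass, and fell in MDA-MB-468 (-0.53). Neither gene was measured in all lines, so both are missing from the 28 genes. The number of starts over 1 kb apart had a rho of 0.36 with the mean log2 fold change over 28 genes. Gene counts do not separate transcripts, so which start was used in these cells was not measured, and the promoter table is not complete.

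**Figure D5:**
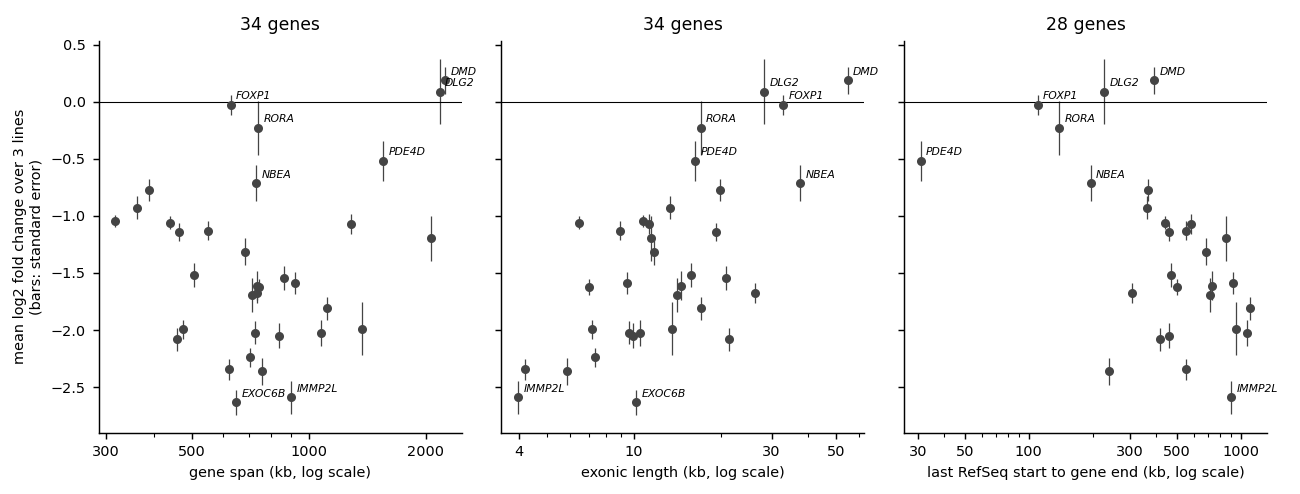
Mean log2 fold change over the 3 lines (y axis, bars are standard errors) against gene span, exonic length and the distance from the last RefSeq start to the gene end (log axes, kb), 1 point per gene. Points rise with exonic length (rho 0.59) and fall with the last distance (rho -0.57). For span rho was 0.02 and Pearson's r with the logarithm 0.22.

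Listed genes named for a fragile site were also set beside the rest of the list. The 8 such genes measured in all lines (WWOX, MACROD2, IMMP2L, DLG2, DMD, DIAPH2, NBEA and RORA) had a median of -0.95 on the mean of the lines and 5 fell, whereas the other 26 had a median of -1.62 and 25 fell, beside 34.6% of all genes. The 3 of the 8 that did not pass were DLG2, RORA and DMD. DLG2 was under 1 CPM in every library and RORA at 0.279 to 1.88 CPM, with standard errors of 0.29 and 0.24 on the mean. DMD was better measured, with a standard error of 0.12. Of 14 further fragile site genes outside the list, 2 of 2 measured in MDA-MB-468 fell (median -2.57), 4 of 5 in SUM149PT (-1.41) and 3 of 6 in HCC38 (-1.04), where the listed genes not named for a fragile site had medians of -2.22, -1.37 and -1.20. By line, the listed genes named for a fragile site, FHIT included where it was measured, had medians of -2.08, -0.39 and -0.84. These were over 9, 9 and 8 genes in the same order. The difference between these sets was not tested.

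Control levels, compared per kb of exon, spanned a wide range. In the MDA-MB-468 LNA NS libraries, SND1 was at 47.0 CPM per exonic kb, PTPRK at 19.7 and GMDS at 19.2, while FHIT was at 0.484 and DMD at 0.264. SND1 and GMDS were both well expressed yet differed in their mean log2 fold change, -1.06 against -2.35.

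Factors of elongation and of the U1 ribonucleoprotein were read in the same fit. Of 31 elongation factors, 5 fell, 17 rose and 9 did not pass on the mean of the lines, beside 34.6% of all genes that fell and 32.9% that rose, and their median was 0.12. NELFB and NELFE, subunits of the negative elongation factor, fell (log2 fold changes -1.09 and -0.61), and CTR9, of the PAF1 complex, and CCNT2, a cyclin of P-TEFb, rose by 0.71 and 0.75. Of 7 proteins of the U1 particle and its partners, LUC7L3 fell (-0.38), PRPF39 rose by 0.41, SNRPC rose by 0.17 and 4 did not pass. Lastly, the 16-base sequences LNA1 and LNA2 were searched in the listed genes, introns included. None of the 40 held a site with 0 or 1 mismatches on either strand, and matches of at least 13 bases occurred in 10 genes on the transcribed strand and in 15 on the other strand. Apart from the targeted lncRNA no other genes were searched, so these counts have no share over all genes beside them.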

How the data were processed

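Raw counts per gene were deposited by the authors for 12 poly-A libraries. Per the labels, libraries were strand-specific, the genome was hg19/GRCh37 and HTSeq 0.6.0 counted reads. The submitters' notes name TopHat2 2.0.13 and the study's methods STAR 2.5.0c as aligner, and no source used here gives the strand setting of counting, so overlapping and antisense genes inside a very long gene could share its reads. The 5 HTSeq summary lines, 40.8 to 53.7% of each file, were left out. Gene spans and exons came from GENCODE on GRCh37 (55665 identifiers matched).

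Genes passing filterByExpr (minimum count 10, minimum total 15) were fitted with edgeR 4.0.16 in R 4.3.3 (TMM, 1 mean for each of 6 groups, quasi-likelihood test, 6 residual degrees of freedom), with Benjamini-Hochberg adjustment over all 21325 genes and a call at adjusted p under 0.1. CPM are TMM-scaled. A gene counted as measured in a line at a mean of at least 10 counts over its 4 libraries, a rule chosen after the files were opened. Values in every library are given for FHIT and WWOX, the 5 lowest and 5 highest mean changes among genes of at least 1 CPM, and the 5 smallest adjusted p-values between lines. For AUTS2 and NRG1 that mean rests on lines with hardly any counts. The genes and lists were chosen with earlier results of these data known. The scripts were tested on simulated data, where more of the calls were false than the adjusted p allows for, so calls near the threshold are less certain than their p-value says. Alternatives were RLE size factors, library totals, TMM from genes under 20 kb, a stricter and no count filter, DESeq2 1.42.0, each line alone, a replicate block and leaving out each library. Counts set the precision, and intervals cover the spread between these libraries. Within each group the libraries were farther apart than counting noise (chi-square per degree of freedom 15.8 to 27.9). Same-numbered libraries did not deviate together (correlations -0.0052, 0.097 and -0.12), so the numbers were not used as pairs. Single values of the further fragile site genes are not reported here.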

Additional observations from a re-analysis of the deposited data

Results flagged for a closer look

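The response to knock-down of 23 of the 34 very long genes measured in all lines differed between MDA-MB-468, SUM149PT and HCC38 by the F test on the 3 contrasts (edgeR's quasi-likelihood test, Benjamini-Hochberg adjusted over all genes), in each case with the lowest value in MDA-MB-468. Such a difference was passed by 41.7% of all genes. The log2 fold changes of all genes also spread most widely in MDA-MB-468, with a standard deviation of 0.97. The adjusted p-value was 0.00052 for TRAPPC9, 0.0015 for GMDS, 0.0016 for BCAS3, 0.0027 for CDK14 and 0.0029 for WWOX. It was 0.0035 for PTPRK, 0.0046 for IMMP2L, 0.0047 for NAALADL2, 0.0049 for SND1, 0.0056 for EXT1 and 0.0076 for ATXN1. It was 0.010 for LPP, 0.016 for DIAPH2, 0.019 for VPS13B, 0.019 for PTPRG, 0.021 for TBC1D5 and 0.031 for MACROD2. Nearer to the threshold were FTO (0.051), ERC1 (0.051), SPIDR (0.069), PARD3B (0.075), EXOC6B (0.088) and PTPRM (0.099). VPS13B and EXT1 had their highest value in SUM149PT (-0.99 and -0.66), and BCAS3 and NAALADL2 in HCC38 (-0.62 and -0.77). Which line differed was not tested, since the F test takes the 3 contrasts together.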

How the results depend on the processing

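Every count of fallen or risen genes, every median and the share of other long genes that fell stayed within 1.5 times, or within the replicate spread, under all settings that kept the 12 libraries. The counts that fell were 27 to 33 in MDA-MB-468, 26 to 29 in SUM149PT and 26 to 32 in HCC38. Leaving out 1 library gave 31 to 32, 26 to 29, 27 to 30 and, on the mean, 29 to 30. Medians then ran from -2.24 to -2.09, from -1.32 to -1.11, from -1.31 to -1.01 and from -1.61 to -1.49. The count that rose was 0 to 1 in SUM149PT and on the mean, and the count that differed between lines 14 to 25. TMM factors from genes under 20 kb put the median of all genes at -0.12 in MDA-MB-468, -0.03 in SUM149PT, -0.15 in HCC38 and -0.10 on the mean, and under them AUTS2, NAALADL2 and NBEA in HCC38 and FOXP1 in MDA-MB-468 also passed as fallen. The replicate block gave 32, 29, 30 and 30 fallen genes (lines, then mean) and 22 that differed between lines, the added call being NBEA in HCC38. Crossed numbers, added after seeing a correlation of -0.12 in HCC38, gave 32, 29, 30 and 30, and 26. Of the values of single genes, 1246 kept their side of the threshold in other settings and 8 newly passed, and without 1 library 1734 kept it, 5 newly passed and 13 no longer did. Uncalled values of DLG2, DMD, FOXP1, MAGI2, NBEA, PDE4D, RBMS3 and RORA crossed 0 in some settings. With 2 libraries a group, genes under 1 CPM limit what can be read from them. Among those not called these were DLG2, RORA outside HCC38 and RBMS3 in SUM149PT. Among those called as fallen they were PDE4D in MDA-MB-468, NAALADL2 and FHIT in SUM149PT and MACROD2 in HCC38. The cause of these movements was not tested.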
